A study of Homo sapiens with 22 samples.

Results

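The mRNA levels of 10 genes of the extracellular matrix-degrading system were followed in RPTEC, a human renal proximal tubule epithelial cell line immortalized with hTERT. They were the matrix metalloproteinases (MMPs) MMP1, MMP2, MMP3, MMP7, MMP9, MMP10, MMP13 and MMP14 and the tissue inhibitors of metalloproteinases (TIMPs) TIMP1 and TIMP3. The genes were chosen by name, with earlier results of these data known. Of the 10 genes, 9 had a row among the 36859 genes of the expression table, and MMP1 was not analysed here. The filter asked for 10 or more normalized counts in 2 or more libraries and left 14585 genes for testing. It kept 6 members and left out 3 (MMP3, MMP10 and MMP13).

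RNA-seq was done on 22 libraries in 11 groups of 2. WT cells, 2 clones without intact SETD2 (KO1 and KO2) and a line labelled KO2_Rescue were grown in medium with 2% serum, and WT cells were also given 10 ng/ml TGF-β for 72 h after 24 h in 2% serum. The remaining groups were in regular medium with 10% serum, namely Rescue1 and Rescue2, which are single-cell clones of KO cells that carry lentiviral full-length SETD2 under blasticidin, and WT cells with a lentivirus for eGFP (the vector control), SOX2, OCT2 or PRRX1 under puromycin. SETD2 is the methyltransferase that places H3K36me3, and the KO clones were made with Cas9 and 1 guide RNA to exon 3, so that each KO and rescue line is 1 clone. All cells carry hTERT. The serum and the transduction therefore change together between the WT and KO groups and the rescue and transduced groups, and their parts cannot be told apart. Duplicates are not described as separate cultures in the labels, so p-values measure a spread between libraries, which may be technical. Each gene has 1 estimate of spread shared by all 11 groups, so a p-value does not measure the spread of the compared libraries alone.

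MMPs are zinc endopeptidases, made as inactive proenzymes that are opened by other proteases, and together they cut collagens, laminins and many cell surface proteins. The gelatinases MMP2 and MMP9 cut denatured collagen and the type IV collagen of basement membranes. MMP14 is anchored in the membrane and activates pro-MMP2 at the cell surface, where TIMP2 bridges the pair, while TIMPs block active MMPs with a tight complex. In the kidney, MMP7 of tubule cells is known from injury and fibrosis, and the balance of MMPs and TIMPs is studied for the turnover of the tubular basement membrane.

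Summed normalized counts were 11674491 to 16758645 per library, and the reads behind them were approximated at 7600000 to 18600000. The floor was 4.77 normalized counts, the worth of 3 reads in the shallowest library. A group is called at the floor when both its libraries were at or under it, and folds against such a group are bounds that cover counting error only. SETD2 mRNA, which checks the labels, was at 1852 and 2061 normalized counts in WT, 1046 to 1130 in the KO clones, 9764 to 10445 in Rescue1 and Rescue2, and 835 and 820 in the KO2_Rescue libraries. The last pair goes against its label and is called labelled KO2 rescue below. The 2 WT libraries stood apart from each other, since 1.29% of the genes with at least 1000 normalized counts differed over 2-fold between them, against 0.0458% to 0.368% in the other groups. Of 13 proximal tubule markers, 8 to 10 were over the floor in each group, but HNF4A and LRP2 (megalin) were at the floor in all 11 groups.

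Promoter sequences from RefSeq (GRCh38.p14) were matched for 5 of the 10 members by symbol. They show which letters stand just before the start of genes that were strongly expressed (MMP14), variable (MMP7, TIMP1, TIMP3) or near the floor (MMP10). Capitals mark matches to the AP-1 motif TGANTCA, its variant TGAGTAA, the TATA motif TATAAA and the GC box GGGCGG, searched on both strands, with no overlaps among the matches. The 250 bases before the start of each gene read as follows, 5′ to 3′ on the strand of the gene.
MMP7: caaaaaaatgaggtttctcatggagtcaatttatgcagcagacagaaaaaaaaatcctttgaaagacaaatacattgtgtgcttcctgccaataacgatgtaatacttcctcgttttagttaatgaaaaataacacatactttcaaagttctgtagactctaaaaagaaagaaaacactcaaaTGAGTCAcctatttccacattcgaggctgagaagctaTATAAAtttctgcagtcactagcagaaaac
MMP10: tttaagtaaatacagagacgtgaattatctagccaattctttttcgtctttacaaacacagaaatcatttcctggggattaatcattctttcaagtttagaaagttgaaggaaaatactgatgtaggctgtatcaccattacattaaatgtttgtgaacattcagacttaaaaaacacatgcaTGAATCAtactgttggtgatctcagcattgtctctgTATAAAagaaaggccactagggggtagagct
MMP14: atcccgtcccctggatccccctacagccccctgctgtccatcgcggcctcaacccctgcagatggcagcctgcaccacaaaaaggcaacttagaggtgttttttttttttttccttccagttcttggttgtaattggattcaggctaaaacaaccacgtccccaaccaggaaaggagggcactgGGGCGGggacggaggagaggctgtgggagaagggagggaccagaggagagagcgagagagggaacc
TIMP1: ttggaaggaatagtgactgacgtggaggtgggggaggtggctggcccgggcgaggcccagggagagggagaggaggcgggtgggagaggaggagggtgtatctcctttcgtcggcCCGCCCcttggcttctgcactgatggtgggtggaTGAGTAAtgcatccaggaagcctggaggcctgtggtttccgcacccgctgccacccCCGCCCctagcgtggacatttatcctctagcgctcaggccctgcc
TIMP3: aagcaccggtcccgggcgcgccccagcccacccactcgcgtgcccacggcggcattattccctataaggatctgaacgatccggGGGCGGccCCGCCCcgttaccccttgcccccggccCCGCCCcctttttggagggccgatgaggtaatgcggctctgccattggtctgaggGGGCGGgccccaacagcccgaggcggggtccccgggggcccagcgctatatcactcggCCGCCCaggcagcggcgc
They lie at chr11:102530748-102530997 (minus strand) for MMP7, chr11:102780629-102780878 (minus strand) for MMP10, chr14:22836335-22836584 (plus strand) for MMP14, chrX:47582186-47582435 (plus strand) for TIMP1 and chr22:32801455-32801704 (plus strand) for TIMP3. MMP7 and MMP10 share a layout, with TGANTCA beginning 67 bases before the start in both and TATAAA beginning 30 and 31 bases before it. TIMP1 holds TGAGTAA beginning 101 bases before the start and 2 GC boxes, MMP14 holds 1 GC box and TIMP3 holds 5. Among all 35116 promoters of the same length, TGANTCA was in 6.57%, TGAGTAA in 2.21%, TATAAA in 10.7% and GGGCGG in 42.6%. G and C made up 33.6% of the MMP7 window, 34.4% of that of MMP10, 56.8% for MMP14, 64.8% for TIMP1 and 72.4% for TIMP3. The start is the one RefSeq gives, and the MMP7, MMP14 and TIMP1 windows reach past the gene bounds of the annotation used for positions, a short way into the gene. These matches describe the letters and name no site or factor.

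The members lie on 6 chromosomes. MMP7, MMP10, MMP1, MMP3 and MMP13 belong to a run of 9 MMP genes, all on the minus strand, that spans 102520508 to 102955732 of chromosome 11 (GRCh38). Of the 8 genes of this run in the table, MMP7 (matrilysin), a protease without a hemopexin domain, exceeded the floor in 21 of 22 libraries. The 7 others did so in 0 to 3 libraries, with 14.6 normalized counts at most in MMP12. MMP3 and MMP10, the stromelysins, reached 4.3 and 5.4, and the collagenase MMP13 reached 10.4 in a KO1 library whose duplicate was at 0. A fall of these 3 members could thus not be measured, and none exceeded 10.4 normalized counts in any library. MMP2 is on chromosome 16 from 55389700 to 55506691, MMP9 on chromosome 20 from 46008908 to 46016561, and MMP14 on chromosome 14 from 22836560 to 22849041. TIMP1 (chromosome X from 47582408 to 47586789) and TIMP3 (chromosome 22 from 32801705 to 32863041) lie inside SYN1 and SYN3, which run on the opposite strand and share no exonic base with them.

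The levels of the 6 members in all 22 libraries follow, beginning with the gelatinases. In WT, MMP2 had 3064 and 599 normalized counts, and TGF-β-treated WT had 8980 and 9139. KO1 had 7391 and 6643 and KO2 had 11327 and 11856. The libraries labelled KO2 rescue had 12451 and 10613, Rescue1 had 8227 and 7980, and Rescue2 had 5268 and 5847. The 4 transduced WT groups lay between 1848 and 2832. MMP2 was thus high in all KO, rescue and TGF-β libraries and low in all WT libraries without TGF-β, with no overlap between these sets. In the order of the group means, KO2 overlapped labelled KO2 rescue, PRRX1 overlapped SOX2, and OCT2 overlapped WT, whose own libraries were the most distant pair.

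In WT, MMP9 had 1126 and 722 normalized counts, and TGF-β-treated WT had 2364 and 2642. It had 0 and 0 in KO1, 7.45 and 4.93 in KO2, 7.03 and 4.12 in labelled KO2 rescue, 23.5 and 7.6 in Rescue1 and 1.72 and 9.36 in Rescue2. In the transduced WT groups it had 2.62 at most. MMP9 was therefore well above the floor only in the 4 WT libraries in 2% serum, with or without TGF-β. In the order of the means, from KO2 down to KO1 (last), every group overlapped its neighbour.

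In WT, MMP7 had 183 and 182 normalized counts, TGF-β-treated WT had 146 and 175, and the 8 transduced WT libraries had 109 to 160. It had 16.0 and 12.1 in KO1, 33.1 and 24.6 in KO2, 13.7 and 4.04 in labelled KO2 rescue, 22.8 and 24.7 in Rescue1 and 14.9 and 7.38 in Rescue2. All 12 WT-derived libraries were above all 10 libraries of KO or rescue cells, in either serum. Within each of these 2 sets most neighbouring groups overlapped.

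In WT, MMP14 had 838 and 1193 normalized counts, and TGF-β-treated WT had 2548 and 2091. KO1 had 3062 and 2761 and KO2 had 1908 and 1838. It had 1481 and 1251 in labelled KO2 rescue, 1378 and 1177 in Rescue1, 1150 and 1247 in Rescue2 and 1268 to 1706 in the transduced WT groups. KO1, TGF-β and KO2 were the highest 3 groups and did not overlap each other, and from SOX2 down to WT every group overlapped its neighbour.

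Of the inhibitors, TIMP1, a secreted TIMP, had 185 and 206 normalized counts in WT, and TGF-β-treated WT had 103 and 171. KO1 had 592 and 485, KO2 had 416 and 295, and labelled KO2 rescue had 305 and 330. Rescue1 had 138 and 95.4, Rescue2 had 164 and 208, and the transduced WT groups had 113 to 196. The 6 libraries of KO1, KO2 and labelled KO2 rescue were above the 16 others. TIMP3, which binds to the extracellular matrix, had 24.3 and 2.66 in WT, and TGF-β-treated WT had 90.7 and 105. KO1 had 25.8 and 14.8, KO2 had 131 and 137, and labelled KO2 rescue had 216 and 220. It had 9.33 and 17.3 in Rescue1 and 0 in both libraries of Rescue2, and it was at 0 in 7 of the 8 transduced WT libraries and at 0.919 in the other. KO1 and KO2 did not overlap in TIMP3, nor did Rescue1 and Rescue2, while KO1, WT and Rescue1 overlapped.

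**Figure D1:**
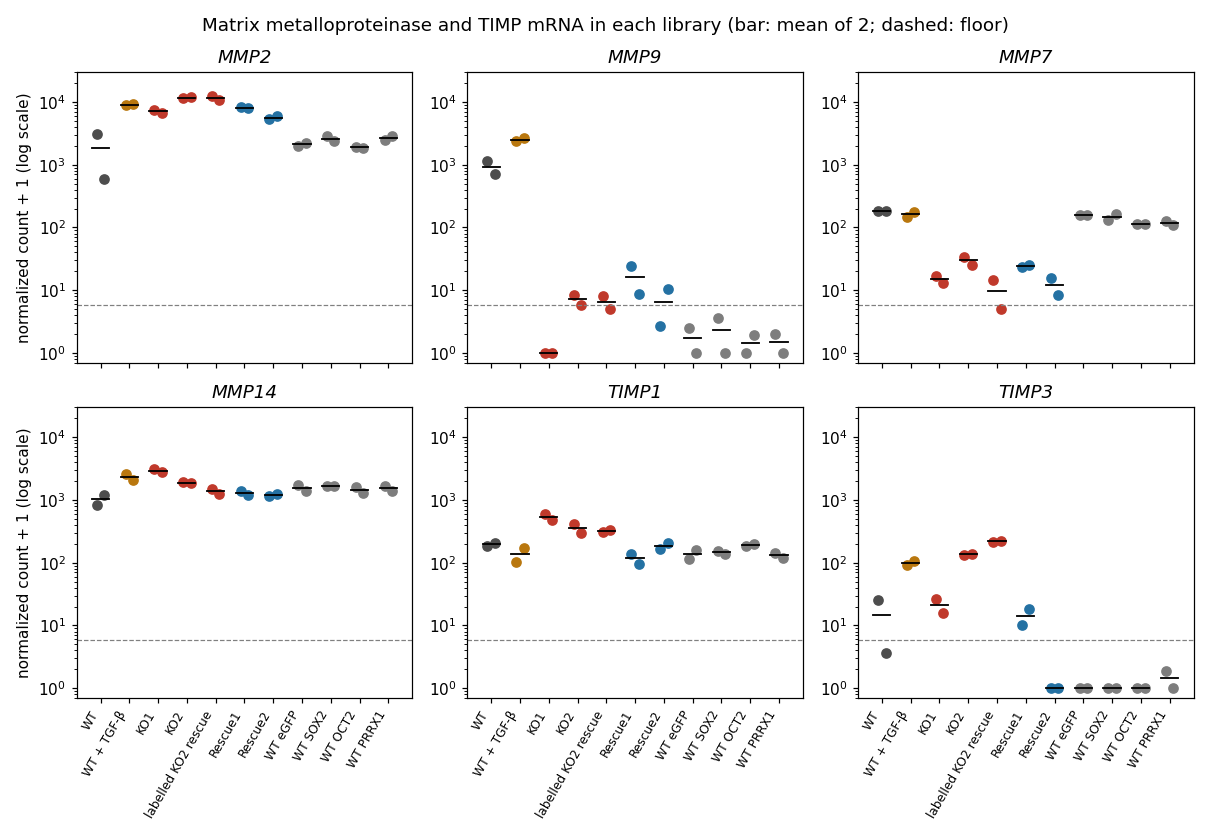
Normalized counts plus 1 (log axis) of MMP2, MMP9, MMP7, MMP14, TIMP1 and TIMP3 in each of the 22 libraries, with each point 1 library, bars the mean of 2 and a dashed line at the floor of 4.77 counts. MMP9 is high only in WT with or without TGF-β, MMP7 falls from 182.5 in WT to 28.8 or less in all KO and rescue groups, and MMP2 is lowest in the WT library with 599.

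TGF-β was compared with WT to see which members the cytokine changes in cells with intact SETD2. MMP2 rose 4.95-fold, to 9059 ± 112 normalized counts (SD, n = 2) from 1831 ± 1743, with a log2 change of 2.74 (SE 0.45, adjusted p = 5.8e-04). Folds here are ratios of mean normalized counts, and log2 changes are differences of mean log2 values, so they part where duplicates are unequal. MMP14, the activator of pro-MMP2, rose 2.28-fold (log2 change 1.21, SE 0.17, adjusted p = 1.8e-04), and TIMP3 rose 7.26-fold (log2 change 3.36, SE 0.74, adjusted p = 0.00511). MMP9 had a mean 2.71 times that of WT with no overlap of libraries but did not pass the test (log2 change 1.47, SE 0.83, adjusted p = 0.282), and it passed with a pseudocount of 5 (adjusted p = 0.0383). MMP7 and TIMP1 did not pass the test, at log2 changes of −0.19 and −0.55 (adjusted p = 0.859 and 0.197). In all, 3 of the 6 tested members were called higher and 0 lower, where 3.58% of all tested genes were called higher and 4.26% lower (7.84% in all). The median log2 change of the 6 was 1.34, against 0.00 over all genes. In a fit of only the 4 libraries compared, 0 of the 6 were called, with adjusted p = 0.224 for MMP2, 0.121 for MMP14 and 0.228 for TIMP3. With equal library totals the log2 change of MMP14 was 0.97, and without the first WT library it was 0.95, both under the fold threshold. A call asked for an adjusted p under 0.05 and a log2 change over 1 in size, and without the second WT library TIMP3 had 1.96 (adjusted p = 0.0791) and without the first 4.75. The size of the MMP2 change also turned on the WT library kept, with 1.56 without the second and 3.92 without the first, called in both cases.

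The WT libraries also differed in other genes. The 8 fibroblast markers added up to 12452 normalized counts in the first WT library and 846 in the second, mostly from COL1A1 at 11919 and 532, whereas COL1A2 was at the floor in both. With TGF-β the sum was 47814 and 46403, in KO1 236652 and 223505, and in KO2 103688 and 100073, where DCN made up most of it (94978 to 234809 normalized counts) and COL3A1 was at the floor. In the rescue clones it was 830 to 1536 and in the transduced WT groups 3686 to 6047. In labelled KO2 rescue it was 41519 and 39189. Of 7 epithelial markers, 6 were over the floor and CDH1 was at it in every KO and rescue group, labelled KO2 rescue among them. All 7 were over it in the WT-derived groups. Their sum was 35558 and 37878 normalized counts in WT, 12050 and 10130 in KO1 and 20650 and 19684 in KO2. It was 35930 to 40499 in the rescue clones, 39752 and 41000 in labelled KO2 rescue and 19297 and 20313 with eGFP. Whether a share of cells or a level per cell moved cannot be told apart in bulk RNA, and the part of these markers in the changes of MMP2 and TIMP3 was not tested. Leukocytes are another source of MMP9 in tissue. Of the 6 leukocyte and macrophage markers in the table, PTPRC, ITGAM and CD14 were at the floor in WT with and without TGF-β, and CSF1R, LYZ and CD68 were above it. The 6 added up to 219 and 124 normalized counts in WT and to 314 and 245 with TGF-β, and KO1, where MMP9 was at 0, had 398 and 330. Their part in the level of MMP9 was not tested.

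SETD2 loss was followed in KO1 and KO2, each against the WT libraries that the TGF-β comparison also uses. MMP2 rose in both clones, 3.83-fold to 7017 ± 529 normalized counts in KO1 (log2 change 2.37, SE 0.45, adjusted p = 6.6e-04) and 6.33-fold to 11592 ± 374 in KO2 (log2 change 3.10, adjusted p = 9.0e-05). MMP9 fell at least 194-fold in KO1, where it was at 0, and 149-fold in KO2 (log2 change −7.00, SE 0.83, adjusted p = 1.3e-05). The KO2 fold is imprecise, since its libraries had 7.45 and 4.93 normalized counts, just over the floor of 4.77. MMP7 fell 13-fold in KO1 (log2 change −3.62, SE 0.45, adjusted p = 1.1e-05) and 6.33-fold in KO2 (log2 change −2.64, adjusted p = 3.3e-04). MMP14 rose 2.87-fold in KO1 (log2 change 1.54, SE 0.17, adjusted p = 4.6e-06), and in KO2 its log2 change of 0.91 had an adjusted p of 9.7e-04 but stayed under the fold threshold. TIMP1 rose 2.75-fold in KO1 (log2 change 1.45, SE 0.27, adjusted p = 5.2e-04), with 0.84 in KO2 (adjusted p = 0.029), also under that threshold. TIMP3 rose 9.93-fold in KO2 (log2 change 3.81, SE 0.74, adjusted p = 0.00109), while in KO1 its log2 change of 1.10 did not pass (adjusted p = 0.266).

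In KO1, 3 of 6 members were called higher and 2 lower, where 12.0% of all tested genes were called higher and 13.1% lower (25.0% in all). In KO2, 2 were called higher and 2 lower, where the shares of all genes were 9.02% and 7.29% (16.3% in all). MMP2 was called higher, and MMP9 and MMP7 lower, in both clones, as were 6.95% (higher) and 5.73% (lower) of all genes. The MMP2 change was called without either of the unequal WT libraries, at a log2 change of 1.19 in KO1 and 1.92 in KO2 without the second and 3.55 and 4.27 without the first. In a fit of only the libraries compared it had an adjusted p of 0.17 in KO1 and 0.108 in KO2, and TIMP3 had 0.111 in KO2, and these calls did not hold there. The TIMP3 change in KO1 was 2.49 (adjusted p = 0.0103) without the first WT library and −0.30 without the second. In KO2, where TIMP3 was called in both cases, its change was 5.20 without the first WT library and 2.41 without the second, where TIMP3 was under the floor. MMP2 had 3.55 and 1.19 in KO1 and 4.27 and 1.92 in KO2 in the same order, called each time. In KO2, MMP14 was called without the second WT library (1.16) and TIMP1 without the second KO2 library (1.09).

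**Figure D2:**
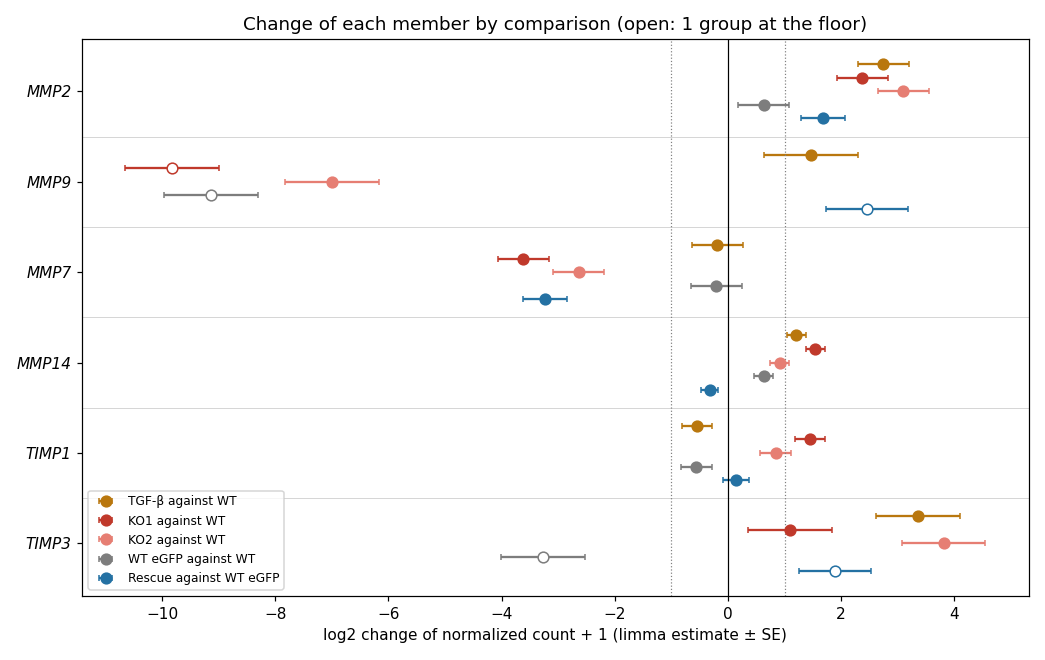
Estimated log2 change of normalized count plus 1 (x axis, limma estimate with its SE as bars) of each member in 5 comparisons, with open circles where 1 group was at the floor, so that the value is no measure of the fold, and dotted lines at the fold threshold of 1. MMP7 lies between −3.62 and −2.64 in the KO and rescue comparisons and near 0 in the others, and MMP9 falls in KO1, KO2 and eGFP.

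The clones differed from each other in 2 members past the test. TIMP3 was 6.59-fold lower in KO1 than in KO2 (log2 difference −2.71, SE 0.74, adjusted p = 0.0216), and MMP9, at the floor in KO1, was at least 1.3-fold lower there (adjusted p = 0.0317). The 2 calls stand beside 4.49% of all genes called lower and 2.48% called higher in KO1 (6.97% in all). MMP9 lost its call when any of the 4 libraries was left out and TIMP3 when the second KO1 library or either KO2 library was, and in a fit of only these 4 libraries the adjusted p was 0.0709 and 0.111. MMP9 also lost it with a pseudocount of 5 (adjusted p = 0.106) and with no filter on low counts (0.0547). MMP2 (log2 difference −0.73, 95% confidence interval −1.69 to 0.24) and MMP7 (−0.99, −1.94 to −0.03) had adjusted p of 0.315 and 0.155.

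KO cells, as the mean of both clones, were also set directly against TGF-β-treated WT. MMP9 was at 0 to 7.45 normalized counts in KO against 2364 and 2642 with TGF-β (adjusted p = 4.4e-08), and MMP7 was 7.48-fold lower in KO (log2 difference −2.94, SE 0.39, adjusted p = 2.4e-05). TIMP1 was 3.26-fold higher in KO (log2 difference 1.70, SE 0.23, adjusted p = 3.6e-05). For MMP2 the log2 difference was −0.01 with a 95% confidence interval of −0.85 to 0.83, and for MMP14 it was 0.02 with −0.31 to 0.34 (−0.07 with equal library totals). TIMP3 had −0.91 (−2.28 to 0.47). For MMP2, MMP14 and TIMP3 the clones lay on opposite sides of TGF-β with no overlap of libraries, which their mean hides. MMP2 was at a mean of 7017 normalized counts in KO1, 9059 with TGF-β and 11592 in KO2. In the same order MMP14 was at 2911, 2319 and 1873, and TIMP3 at 20.3, 98.0 and 134. Each clone alone was not tested against TGF-β. Called were thus 1 member higher and 2 lower, beside 10.3% and 9.83% of all genes (20.2% in all).

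Return of SETD2 was read in 2 ways, against KO and against transduced WT cells in the same serum. Against KO, where the serum differed too, TIMP1 fell 2.95-fold (log2 change −1.57, SE 0.19, adjusted p = 8.0e-06) and TIMP3 fell 11.6-fold (log2 change −3.83, SE 0.52, adjusted p = 2.6e-05). MMP14 was 1.93-fold lower with an adjusted p of 2.1e-05 but just under the fold threshold at −0.92. MMP9 was called higher (log2 change 1.72, adjusted p = 0.0263) on levels of at most 23.5 normalized counts, and this call was lost when any 1 of 4 libraries was left out (the second of KO1, KO2 and Rescue2 and the first of Rescue1), in a fit of only the 8 libraries compared (adjusted p = 0.0704) and with a pseudocount of 5, where the log2 change was 0.87. MMP2 (−0.43, 95% confidence interval −1.11 to 0.26) and MMP7 (−0.31, −0.99 to 0.36, and 0.06 with equal library totals) did not pass the test. Of the 6 members 1 was called higher and 2 lower, beside 11.3% and 11.9% of all genes (23.3% in all). Since the parent clone of the rescue lines is not given in the sources used here, each rescue clone was also set against each KO clone. TIMP3 then had −0.58 (adjusted p = 0.576) for Rescue1 against KO1, TIMP1 had −0.92 (adjusted p = 0.0183) for Rescue2 against KO2, and MMP14 was called at −1.19 and −1.28 for the 2 rescue clones against KO1. MMP7 had 0.73 (adjusted p = 0.218) for Rescue1 against KO1 and −1.36 (adjusted p = 0.0331) for Rescue2 against KO2, and MMP2 had 0.21 for Rescue1 against KO1.

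Against eGFP-transduced WT, MMP2 was higher in the rescue clones, 3.26-fold at 5268 to 8227 normalized counts against 1997 and 2197 (log2 difference 1.68, SE 0.39, adjusted p = 0.0045). MMP7 was lower, 9.04-fold at 7.38 to 24.7 against 160 and 155 (log2 difference −3.23, SE 0.39, adjusted p = 1.7e-05). MMP14 (−0.32, 95% confidence interval −0.64 to 0.00) and TIMP1 (0.14, −0.36 to 0.64) did not pass the test. MMP9 was at least 2.21-fold higher (adjusted p = 0.0177) and TIMP3 at least 1.4-fold higher (adjusted p = 0.0376), in both cases against a control at the floor. The MMP9 call was lost when the first Rescue1, second Rescue2 or second eGFP library was left out, and the TIMP3 call when any of the 6 but the first Rescue1 library was. The TIMP3 difference rests on Rescue1, with 9.33 and 17.3, since Rescue2 was at 0 in both libraries like the control, and it was not called with a pseudocount of 5 (0.92, adjusted p = 0.118) or with no filter on low counts (adjusted p = 0.0719). In a fit of only these 6 libraries MMP9 had an adjusted p of 0.103. In all, 3 members were called higher and 1 lower, beside 6.47% and 6.66% of all genes (13.1% in all).

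The eGFP-transduced WT cells were set against WT, from which they differ in both medium and vector. MMP9 fell at least 194-fold, from 1126 and 722 normalized counts to 1.54 and 0 (adjusted p = 1.5e-06), the same bound as in KO1. TIMP3 fell at least 2.83-fold, from 24.3 and 2.66 to 0 and 0 (adjusted p = 0.00415), and this call was lost without the first WT library (adjusted p = 0.0619) and in a fit of only the 4 libraries compared (0.17). MMP7 did not pass the test (log2 change −0.21, 95% confidence interval −1.16 to 0.74), nor did MMP2 (0.63, −0.34 to 1.60), which was called at 1.81 without the first WT library and had −0.55 without the second. Of the 6 members 0 were called higher and 2 lower, beside 6.49% and 6.24% of all genes (12.7% in all). MMP9 thus had 23.5 normalized counts at most in the 12 libraries in 10% serum, WT-derived or rescued.

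The change from WT to KO in 2% serum was therefore set against the change from eGFP-transduced WT to rescue in 10% serum. The difference of these changes was 1.54 on the log2 scale for MMP14 (SE 0.21, adjusted p = 4.4e-05) and 1.01 for TIMP1 (SE 0.33, adjusted p = 0.0273). For MMP9 the fitted value was −10.87, but the eGFP libraries stood at the floor already, where no fall to rescue could be measured, so it is no measure of a difference in effect. For MMP7 it was 0.10 (95% confidence interval −1.07 to 1.27), and −0.30 with equal library totals. For MMP2 it was 1.05 (−0.13 to 2.24), and for TIMP3 0.56 (−1.38 to 2.50). Called were 2 members above 0 and, below it, MMP9 with that limit, beside 12.0% and 11.8% of all genes (23.8% in all). The call of TIMP1 was lost when 7 of the 12 libraries were left out in turn, at 0.78 without the second eGFP library, and with equal library totals, at 0.58 (adjusted p = 0.191). It was also lost with a pseudocount of 5, where it was no longer over the fold threshold (adjusted p = 0.0253), and in a fit of only the groups compared, at 1.01 (adjusted p = 0.0558). That of MMP2 was gained without the first WT library, at 2.23, and without the second WT library the value was −0.12.

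The libraries labelled KO2 rescue, in the serum of KO2, had MMP7 3.25-fold lower than KO2 (log2 change −1.78, SE 0.45, adjusted p = 0.0185), and no other member passed. MMP2 was at 11532 ± 1299 normalized counts against 11592 ± 374 (log2 change −0.01, 95% confidence interval −0.98 to 0.96, and 0.06 with equal library totals). The count of 1 of 6 called lower and 0 higher stands beside 2.52% and 1.65% of all genes (4.17% in all). The MMP7 call was lost without the first KO2 library (adjusted p = 0.134) or the second labelled KO2 rescue library (0.228), and in a fit of only these 4 libraries (0.254).

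With ectopic SOX2, OCT2 or PRRX1, set against eGFP in the same serum, 0 of the 6 members were called by limma, and 0 had an unadjusted p under 0.05. The smallest unadjusted p was 0.0754, for TIMP1 with OCT2 at 184 and 196 normalized counts against 113 and 155. MMP7 had 113 and 114 with OCT2 and 126 and 109 with PRRX1, under the 160 and 155 of eGFP (unadjusted p = 0.305 and 0.356 by limma). MMP2 libraries did not overlap those of eGFP either, higher with SOX2 and PRRX1 and lower with OCT2. Of all genes 0.0206% were called with SOX2 (0.0137% higher and 0.00686% lower), 0.0343% with OCT2 (0.0274% and 0.00686%) and 0.0411% with PRRX1 (0.0343% and 0.00686%). For MMP2 the 95% confidence intervals of the log2 change were −0.67 to 1.27 with SOX2, −1.12 to 0.82 with OCT2 and −0.64 to 1.29 with PRRX1. MMP9 and TIMP3 were at the floor in all 4 groups.

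Levels per kilobase of the MANE transcript allow genes to be set beside each other. By this measure MMP2, MMP9, MMP14 and MMP7 made up most of the MMP mRNA in WT with or without TGF-β. Over the 21 MMP genes in the table, MMP2 took 47.0% and 15.3% of the summed level in the WT libraries, MMP9 took 26.0% and 27.7%, MMP14 took 12.2% and 28.9% and MMP7 took 8.83% and 14.5%. With TGF-β MMP2 took 57.0% and 57.2% and MMP9 22.6% and 24.9%. In KO1 MMP2 took 67.0% and 67.6% and MMP14 26.4% and 26.7%, and in KO2 MMP2 took 81.2% and 83.0%. In the rescue clones MMP2 took 76.9% to 83.0%, and with eGFP 42.5% and 49.1% beside 34.4% and 29.6% for MMP14. MMP19 took 4.55% and 10.6% in WT, 4.29% and 4.32% in KO1, 3.77% and 3.31% in KO2 and 10.3% and 8.67% with eGFP. In the KO clones it stood above MMP7, which took 0.385% to 0.745% there.

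**Figure D3:**
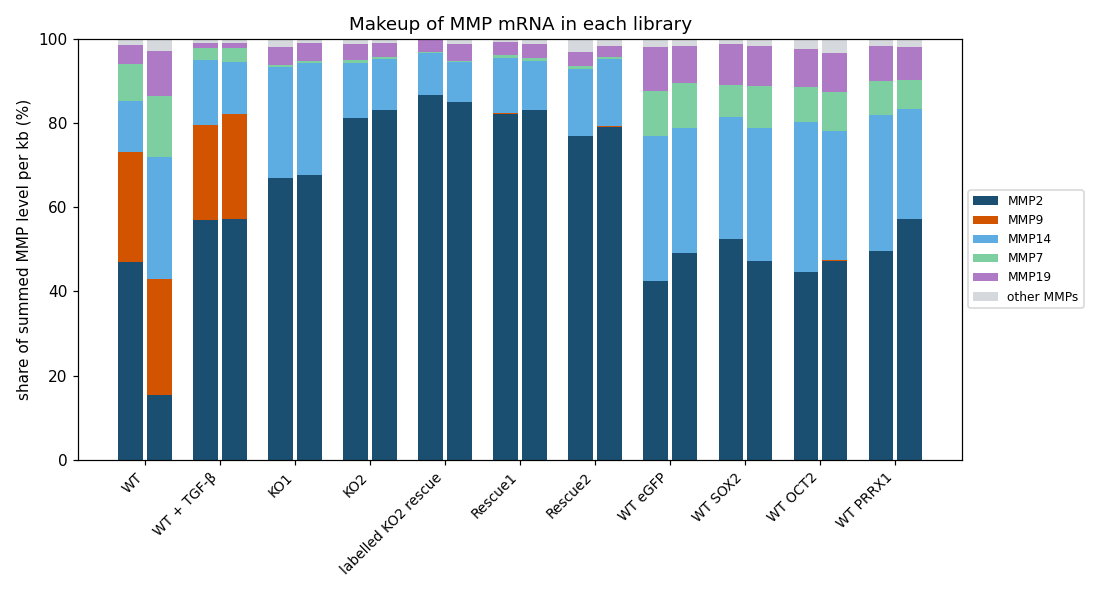
Share of the summed MMP level per kilobase (y axis, %) taken by MMP2, MMP9, MMP14, MMP7, MMP19 and the other MMPs, with 1 stacked bar per library and 2 bars per group. MMP9 takes 22.6% to 27.7% in the WT and TGF-β libraries and under 1% in every other library.

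The inhibitors were led by TIMP2, which is no member, with 81.3% to 96.7% of the summed TIMP level per kilobase. In WT, TIMP2 had 5714 and 6473 normalized counts, and TGF-β-treated WT had 4027 and 3904. KO1 had 20572 and 22712 and KO2 had 26412 and 25637. It rose 3.55-fold in KO1 (log2 change 1.83, SE 0.06, adjusted p = 7.7e-12) and 4.27-fold in KO2 (log2 change 2.10, adjusted p = 3.2e-12), and with TGF-β it was 1.54-fold lower (log2 change −0.62, adjusted p = 7.0e-06, under the fold threshold). The rescue clones had 12958 to 13974 and the eGFP libraries 11554 and 10976.

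Summed over 21 MMPs and 3 TIMPs per kilobase, the MMP level was 3.57 and 3.46 times the TIMP level with TGF-β, the highest of all groups. It was 1.03 and 0.547 times in WT, 0.49 and 0.408 in KO1, 0.509 and 0.547 in KO2, 0.711 and 0.715 in Rescue1, 0.509 and 0.551 in Rescue2 and 0.38 to 0.49 in the transduced WT groups. The MMP sum per kilobase was 4484 and 4549 with TGF-β and 2798 to 4063 in the KO clones, while the TIMP sum was 1256 and 1314 with TGF-β and 6409 to 7802 in the KO clones. The ratio is of transcripts, not of active enzyme, and its differences between groups were not tested.

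**Figure D4:**
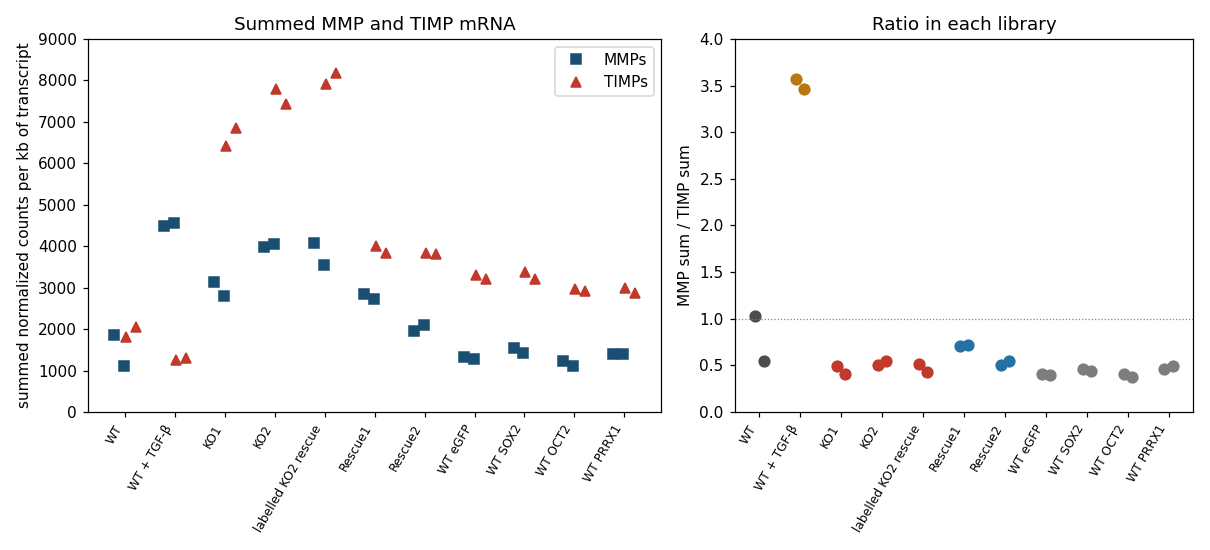
Left, summed normalized counts per kilobase of 21 MMPs (squares) and 3 TIMPs (triangles) in each library; right, their ratio, with a dotted line at 1. The TGF-β libraries reach 3.57 and 3.46, and of the 20 others 1 WT library, at 1.03, is above 1.

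Related genes were counted in lists by role, beside the same shares of all genes called as above. Of 7 other MMPs and TIMPs tested, 2 were called higher and 1 lower in KO1, 2 higher and 0 lower in KO2, and 1 higher and 1 lower with TGF-β. MMP17, a GPI-anchored MMP, had 2.18 and 2.84 normalized counts in WT and 61.2 and 28.5 in KO1 and 63.0 and 42.5 in KO2, at least 9.4-fold and 11.1-fold higher. It also rose at least 4.55-fold with eGFP, to 23.4 and 20.0. MMP19 fell with TGF-β, from 274 and 382 to 161 and 149 (log2 change −1.06, SE 0.18, adjusted p = 6.1e-04).

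Of 9 other inhibitors and cofactors tested, 4 rose in KO1 and 4 in KO2, 1 fell in KO1, and 2 rose with TGF-β. TFPI2, a matrix-bound serine protease inhibitor, had 152 and 24.8 normalized counts in WT and 2268 and 5107 in KO1 (log2 change 5.76, SE 0.64, adjusted p = 4.2e-06) and 1679 and 1188 in KO2 (4.49, adjusted p = 7.6e-05). LRP1, the receptor that clears MMPs and their complexes from the surface, rose in KO1 (log2 change 3.31), in KO2 (2.47) and with TGF-β (1.35). RECK, a membrane-anchored inhibitor of MMPs, fell in KO1, from 157 and 109 to 49.4 and 2.54 (log2 change −3.30, SE 0.77, adjusted p = 0.00317), where 1 KO1 library is under the floor. KO2 had 43.3 and 30.4 and did not pass the test (log2 change −1.82, adjusted p = 0.0955). RECK rose in rescue against KO to 110 to 138 (log2 change 2.45, adjusted p = 0.00191). In rescue against KO, 2 of the 9 rose and 4 fell, TFPI2 most (log2 change −4.67, SE 0.46, adjusted p = 7.8e-07).

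Of 8 proteases that activate proenzymes, 2 rose and 1 fell in KO1, and 2 rose and 2 fell in KO2. TMPRSS2, a membrane serine protease, was at 0 in WT with or without TGF-β, and had 5698 and 5416 normalized counts in KO1, 3542 and 3355 in KO2, 333 to 450 in the rescue clones and 418 and 554 with eGFP. PLAT, the tissue plasminogen activator, had 300 and 395 in WT, 7722 and 6920 in KO1 and 1810 and 1686 in KO2. PCSK5, a proprotein convertase, fell from 3020 and 4107 in WT to 170 and 161 in KO1 and 257 and 212 in KO2, to 954 and 835 with TGF-β and to 881 and 890 with eGFP. In the rescue clones PCSK5 had 25.5 to 75.4, under all WT-derived libraries, as were the KO clones.

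Of 8 ADAM proteases tested, ADAM12 and ADAM19 rose with TGF-β (log2 change 2.18, adjusted p = 4.6e-06, and 2.48, adjusted p = 6.2e-05), while ADAM10 fell (−1.13, adjusted p = 2.0e-06). In KO1, 3 rose and 1 fell, which was ADAM19 at 381 and 308 normalized counts against 3007 and 989 in WT, and in KO2, 3 rose and 0 fell. Of 11 ADAMTS proteases 6 fell and 0 rose in KO1, with ADAMTS6 (log2 change −5.96, SE 1.14, adjusted p = 6.8e-04) and ADAMTS15 (−5.03, SE 0.81, adjusted p = 1.5e-04) at the head, and 1 fell in KO2. With TGF-β 3 of the 11 rose and 1 fell, and ADAMTS16 rose most (log2 change 3.51, SE 1.08, adjusted p = 0.0357).

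AP-1 is the dimer of FOS and JUN proteins that binds the motif shown in MMP7 and MMP10. FOS had 3.47 and 1.83 normalized counts in WT and 1481 and 1538 with eGFP, at least 316-fold higher, and FOSB had 36.1 and 9.52 in WT and 6107 and 6462 with eGFP (log2 change 8.31, SE 0.64, adjusted p = 3.2e-07). In the rescue clones, in the same serum, FOS had 0 to 22.35 and FOSB 41.6 to 175. Of 6 subunits tested, 3 rose with eGFP, 1 rose in KO1 (FOSB, log2 change 2.14), 1 fell in KO2 (FOSL1, −1.50) and 1 fell with TGF-β (FOSL2, −1.58). Beside these values stand MMP7 at 183 and 182 normalized counts in WT and 160 and 155 with eGFP, and MMP10 at 0 in all 4 libraries. Binding of AP-1 to either gene, and any part of it in their levels, was not tested.

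The genes most like each member over the 11 group means, by Pearson's r on log2(normalized count + 1), were SS18 for MMP2 (r = 0.974), LMO4 for MMP9 (0.962), PTGFRN for MMP7 (0.953, after an unnamed gene at 0.965), FAM168A for MMP14 (0.951), CKB for TIMP1 (0.97) and PLPP5 for TIMP3 (0.965). These are the highest of 14585 and describe the pattern only. Among the members, MMP2 and TIMP3 had r = 0.768 over the 11 group means, MMP2 and MMP7 −0.718, and MMP7 and TIMP1 −0.594, while MMP2 and MMP9 had 0.089. The groups share clones, serum and WT origin, so these values are descriptions.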

How the data were processed

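RNA was made into libraries with the TruSeq Stranded mRNA kit, and 22 libraries (11 groups of 2) were analysed. Per the paper's methods and the submitters' processing notes, the authors quantified reads with Salmon 1.9.0 on Ensembl release 94 cDNA (GRCh38) and normalized them with DESeq2 1.26.0. The authors deposited log2 values of variance-stabilized form, in which 11.32 in all columns stood for a count of 0, and these were converted back to normalized counts. Reads were approximated from the step that 1 read makes (0.795 to 1.59 normalized counts).

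Groups came from the labels. Tests used limma 3.58.1 (R 4.3.3), a moderated test with a trend on the log2 of the normalized count plus 1. A single model held all 22 libraries, with 11 group means and no covariate, and 14585 genes that reached 10 normalized counts in 2 or more libraries. Log2 changes are differences of group means on that scale, where the added 1 shrinks changes of low genes. Folds are ratios of the group means of normalized counts, so a fold and its log2 change need not match. P-values were adjusted over all 14585 genes (Benjamini-Hochberg), and a gene was called at an adjusted p under 0.05 and a log2 change over 1 in size. On data simulated for 14585 genes, 185 of 200 genes changed by 2 on the log2 scale were recovered, with 6 false calls among the unchanged genes. The simulation gave all libraries the same spread, unlike the unequal WT libraries. It therefore checks the procedure and gives no error rate for the comparison of TGF-β with WT. Sequences, tables and plots used Python 3.11.15, pandas 2.3.3 and matplotlib 3.10.9.

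The members, lists and tests were chosen with earlier results of these data known. All members were named, and of each related list at most the 3 called genes with the largest change per comparison. Alternatives were a pseudocount of 5, no filter, equal totals, the deposited log2 values, only the groups compared, a replicate block, single rescue and KO clones, and each library left out in turn. The kit marks strand, but whether the counting used it was not given in the sources used here.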

Additional observations from a re-analysis of the deposited data

Results flagged for a closer look

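5 results were set apart because the effects of 2 groups differed by a test of the difference itself (limma, adjusted over 14585 genes). Between the KO clones, MMP9 had a log2 difference of −2.82 (adjusted p = 0.0317), with 0 and 0 normalized counts in KO1 and 7.45 and 4.93 in KO2, a level at least 1.3-fold lower in KO1. It lost the call without any 1 of the 4 libraries, with a pseudocount of 5 (adjusted p = 0.106) and with no filter on low counts (adjusted p = 0.0547). TIMP3 had −2.71 (adjusted p = 0.0216), with 25.8 and 14.8 in KO1 and 131 and 137 in KO2, and lost the call without the second KO1 library or either KO2 library.

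The change from WT to KO less the change from eGFP-transduced WT to rescue was 1.54 for MMP14 (adjusted p = 4.4e-05) and 1.01 for TIMP1 (adjusted p = 0.0273), and the TIMP1 call was lost under several settings. For MMP9 the fitted value was −10.87, but eGFP-transduced WT was at the floor, where no fall to rescue could be measured, so it is no measure of a difference in effect. Serum, transduction and SETD2 all change across these 4 sets of libraries and cannot be told apart.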

How the results depend on the processing

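Of 456 member log2 changes recomputed under another setting, 393 kept their direction and side of the threshold, 50 lost a call, 4 gained one and 9 changed sign. Of 384 recomputed with 1 library left out, 322 kept both, 31 lost a call, 5 gained one and 26 changed sign. On the deposited log2 values, whose scale compresses low counts, 1 member was called in TGF-β, KO1 and KO2 against WT and in KO against TGF-β, and 0 in KO1 against KO2, rescue against KO, eGFP against WT, rescue against eGFP, the difference of changes and labelled KO2 rescue against KO2. In fits of only the groups compared, 0 were called in TGF-β against WT, KO1 against KO2 and labelled KO2 rescue against KO2, 2 in KO2 against WT and 1 in eGFP against WT. These fits have fewer libraries. With a pseudocount of 5, and with no filter, 1 member was called in KO1 against KO2.

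With equal library totals, the median of all genes moved to −0.20 (TGF-β), −0.40 (KO1), −0.21 (KO2), −0.21 (KO1 against KO2), −0.10 (KO against TGF-β), 0.38 (rescue against KO), 0.10 (rescue against eGFP) and −0.41 (difference of changes). The sign then changed for MMP14 in KO against TGF-β (−0.07), MMP7 in rescue against KO (0.06) and in the difference of changes (−0.30), and MMP2 in labelled KO2 rescue against KO2 (0.06). On the deposited log2 values it changed for MMP2 in KO against TGF-β (0.00) and MMP7 in the difference of changes (−0.01). Among single clones it changed for MMP9 in Rescue2 against KO2 (−0.41) and for MMP2 (0.21) and MMP7 (0.73) in Rescue1 against KO1. The cause was not tested.

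With 1 library left out, members called ranged from 0 to 1 in KO1 against KO2, 2 to 3 in rescue against eGFP and 0 to 1 in labelled KO2 rescue against KO2. Log2 changes that crossed 0 ranged from −0.30 to 2.49 for TIMP3 in KO1, from −0.55 to 1.81 for MMP2 in eGFP against WT, and from −0.09 to 0.37 for TIMP1 in rescue against eGFP. In KO against TGF-β they ranged from −0.05 to 0.03 for MMP2 and −0.13 to 0.16 for MMP14. In the difference of changes they ranged from −0.12 to 2.23 for MMP2, −0.13 to 0.33 for MMP7 and −0.83 to 1.96 for TIMP3. In labelled KO2 rescue against KO2 they ranged from −0.13 to 0.10 for MMP2, −0.47 to 0.18 for MMP9 and −0.39 to 0.11 for TIMP1. Against eGFP they ranged from −0.26 to 0.03 (MMP7), −0.04 to 0.25 (MMP14) and −0.09 to 0.37 (TIMP1) with SOX2, −0.28 to 0.07 (MMP14) with OCT2, and −0.17 to 0.12 (MMP14) and −0.27 to 0.19 (TIMP1) with PRRX1.

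All genes called fell in fits of only the groups compared from 1143 to 0 (TGF-β), 3653 to 1912 (KO1), 1016 to 1 (KO1 against KO2) and 1856 to 715 (eGFP). They were 739 in TGF-β without the second WT library, and in KO1 against KO2 1745 without the first KO1 library and 642 without the second KO2 library. On the deposited log2 values they were 23 to 206 in the 10 comparisons other than those of SOX2, OCT2 and PRRX1.

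Deviations of same-numbered libraries had r from −0.623 to 0.526 (median −0.005) over 55 pairs of groups, with 7 over 0.1. The numbers thus showed no pairing common to all groups. Some pairs of groups did deviate together or in opposite ways, and whether those groups share a processing step was not tested. With the replicate number as a block, 3 members were called in TGF-β, 5 in KO1 and 4 in KO2 against WT, and the block changed no call of a member. Levels near the floor limit what can be read of MMP3, MMP10 and MMP13, of MMP9 outside WT and TGF-β, and of TIMP3 in the transduced groups.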
